A study of Drosophila melanogaster with 3 samples.

Results

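The 9 genes described here encode proteins of interbands and of housekeeping promoters in Drosophila melanogaster, namely Chro, Dref, M1BP, pzg, row, woc, Trf2, JIL-1 and dwg. They were chosen by name out of 13945 annotated protein-coding genes on the 6 chromosomes of the lists. The question was whether, where and how strongly Hmr occupied these genes themselves. Every entry of a peak list whose summit lay in the gene body or within 2 kb of it was assigned to the gene. The data are chromatin immunoprecipitation sequencing (ChIP-seq) of Hmr, a DNA-binding protein known from the death of hybrids between fly species, in 3 biological replicates of 1 group. Each replicate was whole embryos of both sexes, 0 to 24 h old, from the transgenic line Hmr-GFP, which stably expresses Hmr with GFP at its C terminus. Protein was pulled down with an antibody against GFP after sonication to 200 to 800 bp. All replicates carry the transgene, and there is no second genotype, stage or treatment to set them against. Whole embryos mix all tissues, so a signal cannot be assigned to a cell type.

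Interbands are the open, decondensed stretches between the dense bands of polytene chromosomes, and many of them hold the promoters of genes that are active in most cells. Chro and its zinc-finger partner pzg are structural proteins of interbands, and JIL-1 is the kinase that phosphorylates histone H3 there. Dref, M1BP and dwg bind DNA at promoters or boundaries, Trf2 takes the place of the TATA-binding protein at many promoters without a TATA box, and woc and row are zinc-finger partners of the heterochromatin protein family member HP1c.

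The deposited lists were an optimal list of 8131 peaks, which was the same set as the 8131 strongest entries of the pooled list, a pooled relaxed list of 30000 entries and a relaxed list of 30000 entries for each replicate. Signal is the authors' value for a peak and was read only within 1 list, where rank 1 is the strongest. Sequencing depth is unknown, so no counting interval can be given. Of the 9 genes, 7 had an optimal summit in the body or within 2 kb, against 44.9% of all protein-coding genes. These 7 genes held 15 such summits. The exceptions were M1BP and dwg. Within 250 bp of an annotated transcription start, 6 of the 9 genes had an optimal summit, against 23.4% of all protein-coding genes. These were Chro, Dref, pzg, row, woc and JIL-1. Of the 9 genes, 4 (Chro, row, woc and JIL-1) were also the gene of the start nearest to the summit. At Dref and pzg the start of a neighbouring gene was nearer. Within 100 bp of a start, 4 of the 9 had a summit. No share of all genes is given for the nearest-start and 100 bp counts. The median length of the 9 genes was 5283 bp, against 2166 bp for all protein-coding genes, and a longer gene offers more room for a summit in its body.

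**Figure D1:**
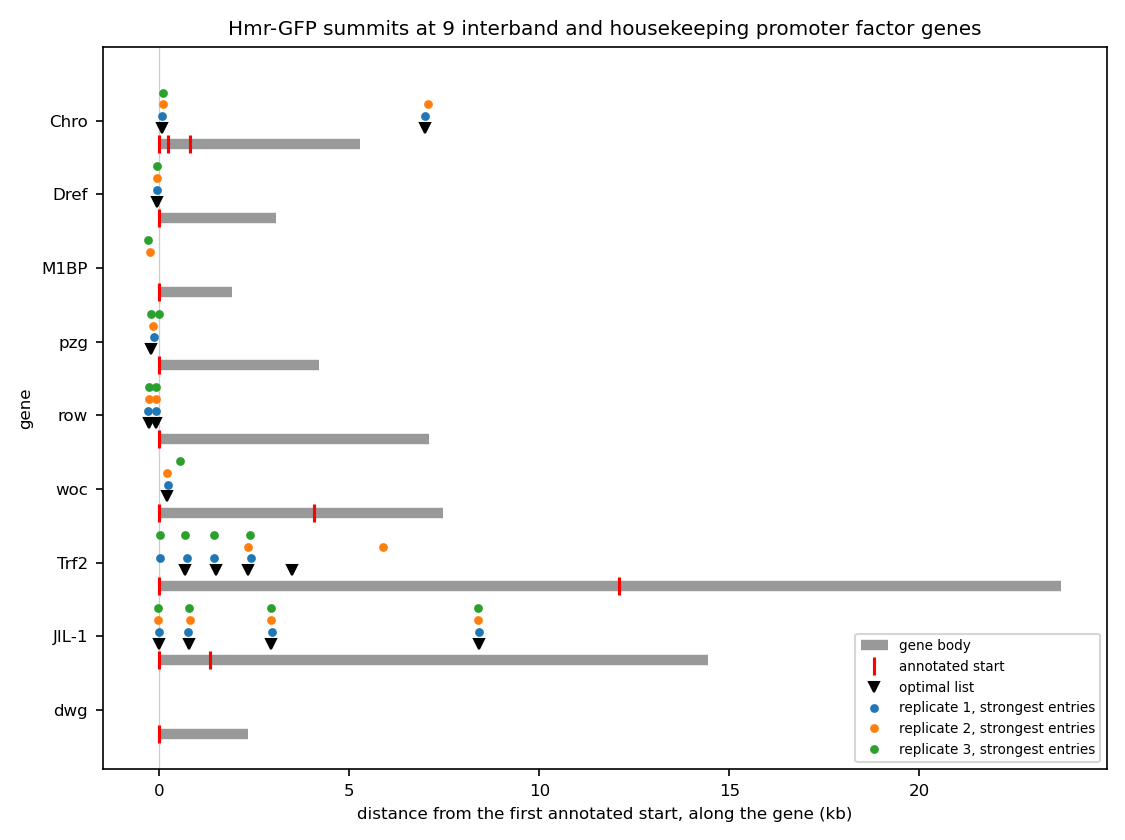
Summits at the 9 genes, by distance in kb from the first annotated start along each gene; grey bars are gene bodies, red ticks annotated starts, black triangles optimal summits and coloured dots summits among the 8131 strongest entries of each replicate. Most symbols sit at or near the first start, Trf2 and JIL-1 have 4 optimal summits each, M1BP has dots from replicates 2 and 3 and no triangle, and dwg has none.

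The strongest site was at Chro, which encodes the chromodomain protein Chromator. Chro lies on 3L from 22873702 to 22878984 on the minus strand, with 3 annotated starts. Its peak spanned 22878676 to 22879132 with a signal of 3514 and rank 11 of the pooled list, and the summit lay 81 bp inside the first start, in the 5′ UTR exon. In the replicates' own lists the site ranked 16 in replicate 1, 12 in replicate 2 and 13 in replicate 3. No other of the 9 genes reached the first 100 ranks in any list. The upstream neighbour Ssl1, which encodes a subunit of the general transcription factor TFIIH, starts on the opposite strand 105 bp from the start of Chro, so the peak covers the starts of both genes. The 30 bases of chr3L:22878880-22878909 in dm6, minus strand, contain the summit, and they are shown for the site in capitals, CGATA read from the other strand, which is the core bound by the boundary protein BEAF-32.
Chro: gttagtttaaagcTATCGacaggcaataca

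A second optimal summit within 2 kb of Chro belonged to the far side of the gene. It had a signal of 196 and rank 6171, lay 6993 bp downstream of the first start of Chro, and was 61 bp inside a start of Arf1, which encodes a small GTPase of vesicle transport. Its ranks were 4591 in replicate 1, 6682 in replicate 2 and 10798 in replicate 3. In every replicate it stood far below the site at the first start.

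The gene pzg encodes Putzig, also called Z4, a zinc-finger protein that binds Chromator. It lies on 3L from 21286099 to 21290310 on the plus strand and has 1 annotated start. Its optimal peak, from 21285768 to 21285998, had a signal of 565 and rank 1346, with the summit 209 bp upstream of pzg and 72 bp inside CG12974, the head-to-head gene that starts 137 bp away. The ranks were 2872 in replicate 1, 1383 in replicate 2 and 1007 in replicate 3. Replicate 1 gave the lowest place. At the start of pzg itself the pooled list had only a weaker entry, of rank 10974 and 6 bp inside the start, and replicate 3 had an entry of rank 3273 lying 17 bp upstream of it. The 30 bases of chr3L:21285908-21285937 in dm6, plus strand, show the CGATA core nearest to the optimal summit, again read from the other strand.
pzg: aaataattacgtTATCGtaatgaacggcaa

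JIL-1, the kinase of interband histone H3, lies on 3L from 11078752 to 11093193 on the minus strand, is 14442 bp long and had 4 optimal summits. The strongest of the gene did not lie at a start. It lay in an intron 2945 bp inside the first start, with a signal of 730 and rank 868, and it ranked 709 in replicate 1, 1122 in replicate 2 and 940 in replicate 3. A second intronic summit, 8403 bp inside the first start, had a signal of 639 and rank 1103 and ranked 720, 1514 and 1315 in replicates 1, 2 and 3. Replicate 1 placed both intronic sites highest. The summit 20 bp upstream of the first start had a signal of 470 and rank 1836, with ranks of 3061, 2425 and 1373 in replicates 1, 2 and 3. Here replicate 1 gave the lowest place and replicate 3 the highest. The fourth summit lay 783 bp inside the first start, in the 5′ UTR exon, with a signal of 317, rank 3362 and ranks of 2807, 4159 and 4483 in replicates 1, 2 and 3. In replicates 1 and 2 each intronic site ranked above the site at the first start, while in replicate 3 the site at the start, at rank 1373, stood close behind the deeper intronic site at 1315.

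Both kinds of JIL-1 site are shown because their bases differ. In the 100 bases at the first start, chr3L:11093174-11093273 in dm6, minus strand, capitals mark the DRE (TATCGATA, the element bound by Dref) and the CGATA cores, of which both strands were searched. It is the only exact DRE within 100 bp of any of the 15 summits, and its centre lies 27.5 bp from the summit towards the gene. In the 81 bases around the strongest intronic summit, chr3L:11090208-11090288, minus strand, neither element occurs.
JIL-1 start: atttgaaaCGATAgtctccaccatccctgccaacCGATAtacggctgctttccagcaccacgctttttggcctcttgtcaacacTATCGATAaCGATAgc
JIL-1 intron: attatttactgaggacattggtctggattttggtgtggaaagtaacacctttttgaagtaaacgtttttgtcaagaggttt

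Dref encodes the DRE-binding factor, a regulator of genes for replication and growth. It lies on 2L from 9964147 to 9967229 on the minus strand, head to head with the ribosomal protein gene RpL13, whose start is 84 bp away. Its only optimal peak spanned 9967136 to 9967461 with a signal of 1145 and rank 351. The summit fell between the starts of the pair, 66 bp upstream of Dref and 18 bp upstream of RpL13. The site ranked 346 in replicate 1, 533 in replicate 2 and 259 in replicate 3. All replicates placed it behind Chro and ahead of pzg, row and woc, with 1 exception, since in replicate 2 row ranked 528. The bases between both starts, chr2L:9967230-9967312 in dm6, written on the strand of Dref, hold 1 CGATA core in capitals, read from the other strand, and no exact DRE.
Dref: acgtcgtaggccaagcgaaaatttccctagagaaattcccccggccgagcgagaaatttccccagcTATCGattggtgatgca

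M1BP, the Motif 1 binding protein, is known for its role in polymerase pausing at housekeeping promoters. The gene lies on 3R from 8729790 to 8731698 on the minus strand, head to head with CG8202, whose start is 393 bp away. The optimal and pooled lists had no entry at it, and the nearest optimal summit was 12701 bp away. Of all protein-coding genes, 21.1% were at least as far from an optimal summit. The replicates disagreed. In replicate 2 an entry of signal 313 and rank 580 lay 252 bp upstream of M1BP, and in replicate 3 an entry of signal 294 and rank 714 lay 291 bp upstream. Replicate 1 had no entry there even in its full list of 30000, and its nearest entry was 7167 bp away. With ranks of 580 and 714, these entries stood higher in their lists than the optimal sites of pzg and woc stood in the same lists. The 81 bases around the summit of replicate 2, chr3R:8731910-8731990 in dm6, minus strand, are printed with the TATAAA letters of either strand in capitals. The window of 100 bp to each side of this summit held 7 such matches, the most of any summit examined here, and a GC content of 20.9%.
M1BP: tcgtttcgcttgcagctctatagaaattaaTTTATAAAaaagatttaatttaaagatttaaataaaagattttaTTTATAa

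The gene dwg, which encodes the boundary protein Zw5, had no entry in any of the 5 lists. It lies on X from 2727698 to 2730042 on the plus strand, with vilya 129 bp upstream on the same strand and ttm50 34 bp downstream. The nearest optimal summit lay 13249 bp away, and the nearest entries of the replicates lay 13278, 13253 and 13259 bp away in replicates 1, 2 and 3. As far or farther from an optimal summit were 20.3% of all protein-coding genes. The start itself is printed because it holds the core seen at the strongest summit of 5 of the 7 genes with an optimal summit. Such a core occurred within 100 bp of 37.1% of all protein-coding starts. In chrX:2727647-2727717 in dm6, plus strand, a pair of CGATA cores in opposite orientation, in capitals, lies at the annotated start, with no entry over it.
dwg: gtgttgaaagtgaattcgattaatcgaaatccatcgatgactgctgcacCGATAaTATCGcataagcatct

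Trf2 encodes the TBP-related factor that works at TATA-less promoters. It is the longest of the 9 genes, at 23740 bp on X from 8409272 to 8433011, plus strand. It had 4 optimal summits, and none lay within 250 bp of a Trf2 start. They lay 674, 1486, 2330 and 3504 bp inside the first start, all in intronic sequence of Trf2. The first 3 also fell in exons of lawc, a gene on the opposite strand that overlaps this end of Trf2. The strongest, at 2330 bp, had a signal of 416 and rank 2242 and was 56 bp inside a start of lawc. It ranked 996 in replicate 1, 5091 in replicate 2 and 2584 in replicate 3. The summit at 674 bp, in a coding exon of lawc, had a signal of 356 and rank 2847 and ranked 1247, 12273 and 2021 in replicates 1, 2 and 3. Its lowest place was thus 9.84 times its highest, the widest span among the optimal summits with an entry in every replicate. The summit at 1486 bp had rank 6570 and no entry within 200 bp in replicate 2. The last had rank 7779, near the end of the optimal list, and was not among the 8131 strongest entries of any replicate. Replicate 2 thus gave the lowest place, or no entry, at the 3 summits over lawc.

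The 5′ start of Trf2 itself had an entry in replicate 1, of rank 3488 and 30 bp inside the start, and in replicate 3, of rank 4306 and 31 bp inside, but none in replicate 2 and none in the pooled list. The summits of replicates 1 and 3 thus fell 1 bp apart. The 30 bases of chrX:8409292-8409321 in dm6, plus strand, hold both summits and the CGATA core in capitals, read from the other strand.
Trf2: acgaagaagacgTATCGtgtgtgctcagac

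The gene woc encodes a zinc-finger protein of interbands that partners HP1c. It lies on 3R from 27256595 to 27264055 on the minus strand with 2 annotated starts. Its optimal peak, from 27263616 to 27264071, had the lowest signal of the 6 genes with a start summit, at 249 and rank 4615, and the summit lay 211 bp inside the first start, in the 5′ UTR exon. The ranks were 3953 in replicate 1, 3288 in replicate 2 and 12298 in replicate 3. The last is beyond the 8131 strongest entries, and the strongest entry of replicate 3 at woc lay 539 bp inside the start, in an intron, at rank 6943. A further entry at the start itself appeared in each replicate list, 19, 0 and 3 bp from it in replicates 1, 2 and 3, at ranks 10375, 15602 and 11254. The 30 bases of chr3R:27263794-27263823 in dm6, minus strand, show the CGATA core nearest to the optimal summit, read from the other strand.
woc: tcggattgcggatTATCGaagtaccgtacg

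The relative of woc, row, also encodes a zinc-finger protein found with HP1c. It lies on chromosome arm 2R from 15206527 to 15213634 on the minus strand and has 1 annotated start, with CG8093 425 bp upstream on the same strand. It had a pair of optimal summits 200 bp apart, both upstream of the start and between the genes. The nearer, 78 bp upstream, had a signal of 851 and rank 634 and ranked 898, 528 and 621 in replicates 1, 2 and 3. The farther, 278 bp upstream, had a signal of 445 and rank 2018 and ranked 4842, 2154 and 1993. In all 3 replicates the nearer summit ranked higher. The spacing was 199, 205 and 200 bp in replicates 1, 2 and 3.

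**Figure D2:**
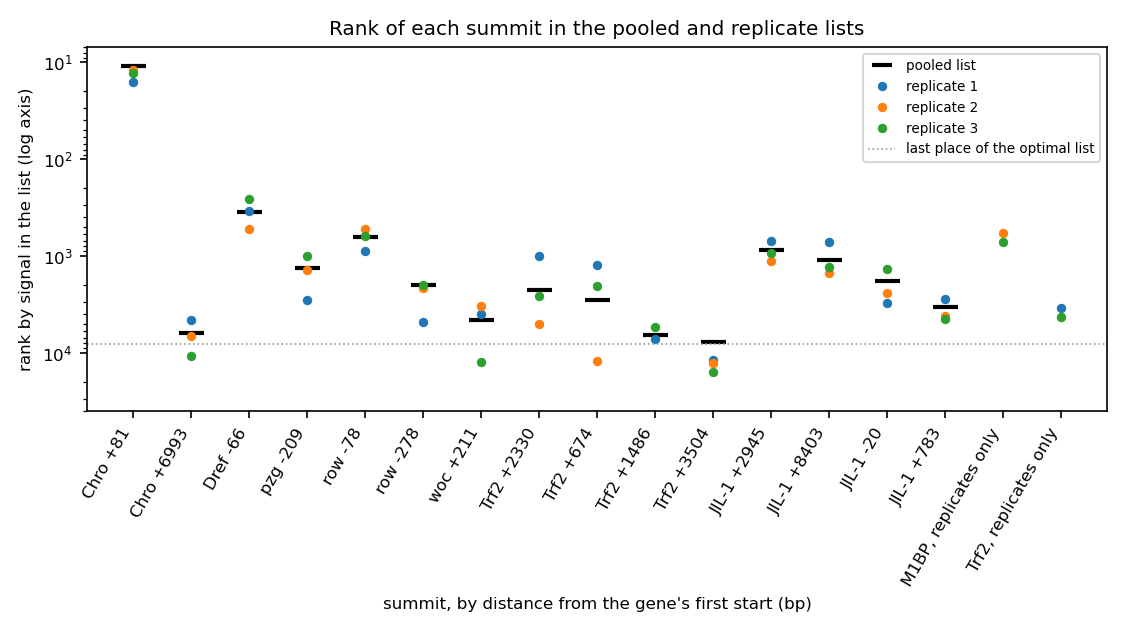
Rank by signal (log axis, strongest at top) of the 15 optimal summits in the pooled list (black bars) and in each replicate's own list (dots), named by gene and distance in bp from its first start, and of the entries upstream of M1BP and at the first start of Trf2 that occur only in replicate lists. Chro at +81 bp lies between ranks 11 and 16 in all lists, while Trf2 at +674 bp lies between 1247 and 12273 in the replicates.

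Of the 15 optimal summits, 10 had a summit within 200 bp among the 8131 strongest entries of all 3 replicates, against 59.7% of all optimal summits. The 5 that did not were Chro at +6993 bp, woc, and Trf2 at +674, +1486 and +3504 bp. In the full relaxed lists 14 of the 15 were matched in all 3 replicates, with Trf2 at +1486 bp the exception. No share of all optimal summits is given for the full lists. Optimal peaks come from the same replicates pooled, so a match is built in and is no independent evidence. The ratio of the lowest to the highest place among the replicates had a median of 2.10 over the 15 summits. For Trf2 at +1486 bp, without an entry in replicate 2, the ratio of 1.35 came from replicates 1 and 3 only. When the 8131 strongest entries of each replicate were read in place of the optimal list, 7 of the 9 genes had a summit within 250 bp of a start in replicate 1, 6 in replicate 2 and 6 in replicate 3 (mean 6.33 ± 0.58, SD, n = 3). For all protein-coding genes the shares were 22.4% in replicate 1, 23.5% in replicate 2 and 27.6% in replicate 3. The genes differed, since Trf2 was included in replicates 1 and 3 and woc in replicates 1 and 2. Chro, Dref, JIL-1, pzg and row were included in all 3. In the body or within 2 kb, 7, 8 and 8 of the 9 genes had such a summit in replicates 1, 2 and 3, with M1BP added in replicates 2 and 3. The shares of all protein-coding genes in the body or within 2 kb were 43.5%, 46.9% and 50.1%.

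The 6 genes with an optimal summit at a start varied widely in signal, from 249 at woc to 3514 at Chro, with a median of 708. Over all 3260 protein-coding genes with such a summit the median was 348, with a range of 154 to 5447. Chro had place 5 among these 3260 genes. Above Dref stood 8.47% of them, above row 13.8%, above pzg 26.4%, above JIL-1 34.7% and above woc 70.6%. So 5 of the 6 stood above the median of all such genes and woc below it. Head-to-head genes can share 1 summit, so the genes in this distribution are not independent.

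**Figure D3:**
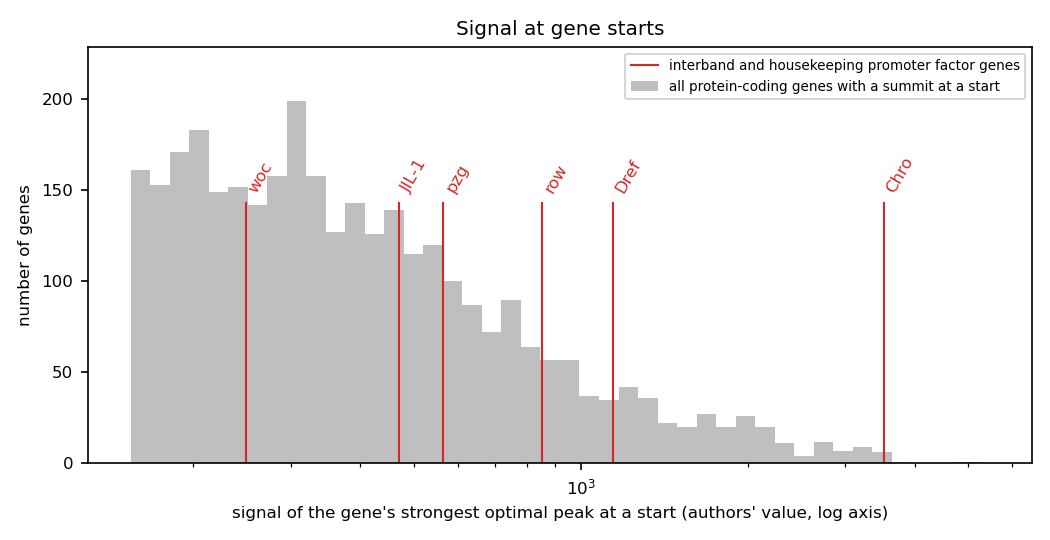
Number of genes by the signal of the strongest optimal peak within 250 bp of a start (log axis, authors' value); red lines mark Chro, Dref, row, pzg, JIL-1 and woc, and grey bars all 3260 protein-coding genes with such a summit. Chro at 3514 lies at the far right, woc at 249 left of the median of 348.

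For each of the 6 genes, the protein-coding gene with the most similar set of ranks in the 3 replicates was found by the distance between their log10 ranks. Genes that share the same peak, namely Ssl1 with Chro, RpL13 with Dref and CG12974 with pzg, have identical ranks and were left out, as were the other members of the 9. For Chro the nearest of the remaining genes was PNPase, which encodes polynucleotide phosphorylase and ranked 14, 10 and 11 in replicates 1, 2 and 3. For Dref it was the autophagy gene Atg8a, with ranks of 364, 634 and 223, tied with BTBD9, which shares the peak of Atg8a. For pzg it was the dystroglycan gene Dg, tied with mRpL34, and for JIL-1 it was CG46525, tied with UQCR-Q. For row it was CG14968 and for woc CG7083, each without a tie. The distances lay between 0.033 for JIL-1 and 0.12 for Chro, over only 3 replicates, and say nothing beyond a like order of ranks.

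Gene layout differed among the 9 genes. Head to head with another protein-coding gene, with starts at most 500 bp apart, were 4 of the 9 genes (Chro, Dref, M1BP and pzg), against 27.4% of all protein-coding genes. Of these 4, Chro, Dref and pzg had an optimal summit at a start. Of all head-to-head genes 39.2% had one, and of all other protein-coding genes 17.4%. Of the 5 without a head-to-head partner, row, woc and JIL-1 had a summit at a start. Trf2 and JIL-1, with 4 optimal summits each, were 2 of the 9 genes with 4 or more, against 5.22% of all protein-coding genes. Both are long, and among protein-coding genes of 10 to 25 kb the share was 18.5%.

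Short sequence elements were searched on both strands within 100 bp of each summit. The BEAF-32 core CGATA, which is also part of the DRE, occurred at 8 of the 15 optimal summits of the 9 genes and at the strongest summit of 5 of the 7 genes that had one (Chro, Dref, pzg, row and woc), against 28.6% of all optimal summits. Among windows of the same width around all 19252 protein-coding starts it occurred in 37.1%. At the strongest summits of Chro, pzg, woc and Dref its centre lay 9, 32, 36 and 51 bp from the summit towards the gene, and at row 69 and 75 bp. None of the 4 optimal summits of Trf2 held it within 100 bp, nor did the intronic summits of JIL-1. Summits at 1 gene share their surroundings, so the 15 summits are not independent. The windows of the row summits held different cores.

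The exact DRE occurred at 1 of the 15 summits, that at the first start of JIL-1, against 3.37% of all optimal summits and 6.45% of protein-coding starts. Its absence near the summit of Dref says only that these letters are not in the window. The M1BP core GGTCACACT occurred at 0 of the 15 summits, against 2.61% of all optimal summits and 4.42% of protein-coding starts. The letters TATAAA occurred at 4 of the 15 summits, against 32.5% of all optimal summits, and GAGAG at 4 of the 15, against 24% of all optimal summits. Both counts were near these shares. Of the 4 summits with GAGAG, 3 were those of Trf2 at +674, +2330 and +3504 bp, and the fourth was that of JIL-1 at +8403 bp. The GC content of the 201 bases around the summit had a median of 39.8% at the 15 summits, from 28.9% to 54.7%, and a median of 36.8% over all optimal summits.

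**Figure D4:**
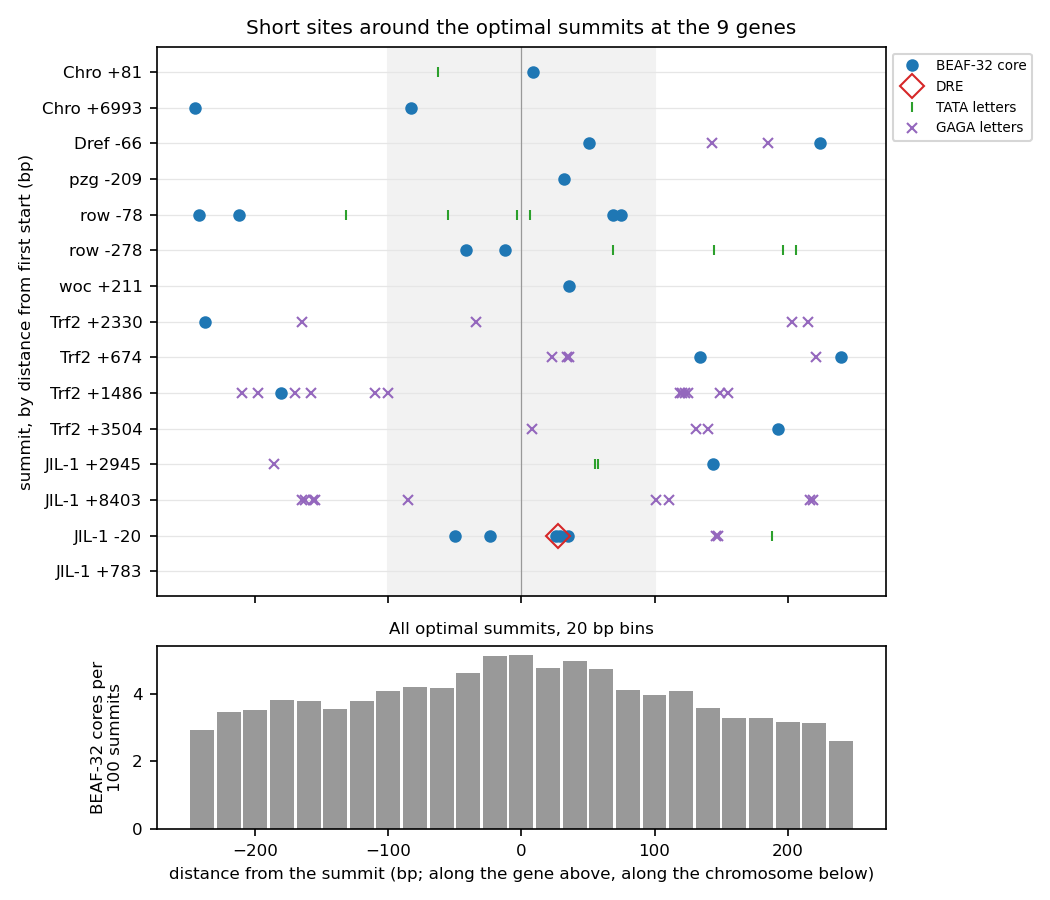
Upper panel, positions of BEAF-32 cores, DREs, TATAAA and GAGAG letters relative to the 15 optimal summits, in bp along each gene, with the 100 bp to each side shaded. Lower panel, BEAF-32 cores per 100 summits in 20 bp bins over all 8131 optimal summits, in bp along the chromosome, with 5.15 in the central bin and 2.93 in the first; the strongest summits of Chro, Dref, pzg, row and woc each have a core in the shaded band, while all cores within 250 bp of the Trf2 summits lie outside it.

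Beside the 9 genes, 25 genes for proteins listed as associates or as other promoter and boundary factors were counted, called partners here. Whether each works with the 9 proteins was not tested. An optimal summit at a start was found at 6 of the 9 genes. It was found at 7 of the 25 partner genes (28.0%), near the 23.4% of all protein-coding genes. In the body or within 2 kb, 7 of the 9 genes and 17 of the 25 partner genes (68.0%) had an optimal summit, against 44.9% of all protein-coding genes. With no margin around the gene this held for 4 of the 9 and 6 of the 25. No share of all protein-coding genes is given with no margin, so these counts have no background here. The median length of the 25 was 3136 bp. Of the 7 partners with an optimal summit at a start, Cp190 had the highest signal, with 1621 and rank 178. It encodes an insulator cofactor. Rcd5 of the NSL complex had 512 and rank 1603. Cp190 and Rcd5 were followed by BEAF-32 with 301, HP1b with 289 and nsl1 with 273. Signals of partner summits away from a start are not given here. At Cp190 the summit lay 104 bp upstream of the start and ranked 226, 129 and 196 in replicates 1, 2 and 3, so all replicates placed it below Chro and above Dref. At Rcd5 the nearer start was that of its neighbour CG11593. By group, an optimal summit at a start was found at 1 of 3 genes of HP1c and its partners and 1 of 4 of the NURF and Dref complexes. It was found at 2 of 6 of the NSL complex and 2 of 10 other promoter and boundary factors. Of the genes listed as partners of JIL-1 and Chro, 1 of 2 had one. In the body or within 2 kb the counts were 2, 2, 4, 7 and 2 in the same order. HP1c, the protein with which woc and row associate, had no optimal summit in its gene body or within 2 kb.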

How the data were processed

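The authors deposited peak lists, not reads, in narrowPeak form for builds dm6 and dm3, and only dm6 was used. Per the deposited text files, relaxed lists of peaks and background were called per replicate and on the pooled replicates against a control, and the optimal list was kept by the irreproducible discovery rate (IDR). Which caller, aligner and IDR threshold were used is not given in the sources used here. The signal of a peak is the authors' deposited value. The deposited −log10 q-value was tied at its highest for 5216 optimal peaks and ranked nothing.

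Gene models were Ensembl release 115, and sequence was RefSeq's Release 6, the assembly of dm6. Summits were compared with starts in Python 3.11.15 with pandas 2.3.3 and NumPy 2.4.6. A summit was at a start within 250 bp, matched in a replicate within 200 bp among its 8131 strongest entries, and head-to-head starts lay at most 500 bp apart. The replicate rank of a summit is that of the nearest entry within 200 bp in the full list. Counting was checked on simulated data.

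The members, the list of 25 partners and the thresholds were chosen with earlier results of these data known, so no test was made. Counts at the main settings stand beside the share over all genes or all optimal summits. Named were all 9 members with their neighbours, the 5 partners of highest signal at a start and the most alike genes, leaving out genes of the same peak. Alternatives changed the distance, margin, window, list and replicates required.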

Additional observations from a re-analysis of the deposited data

How the results depend on the processing

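No paired analysis was possible because the replicates form 1 group and no test was made. Leaving a replicate out meant requiring a match in the other replicates, while the optimal list stayed that of all replicates pooled. This could only keep or lower a count of genes. It could only keep or raise the count of summits matched in all required replicates. The count of 7 of 9 genes with an optimal summit in the body or within 2 kb was 4 with no margin, since the summits of Dref, pzg and row lie upstream of the gene, and was 6 to 8 under every other alternative, with 6 to 7 when a replicate was left out. The count of 6 of 9 at a start was 4 to 7 under all alternatives and 5 to 6 when a replicate was left out. The 10 of 15 summits matched in all replicates became 10 to 14, and 10 to 12 when a replicate was left out. The 0 of 7 strongest peaks with a DRE or M1BP core stayed 0 in every window. The 7 of 25 partners, whose alternatives were chosen after seeing the data, became 4 with peaks of above-median signal only, 5 to 10 otherwise and 6 to 7 when a replicate was left out. The 17 of 25 partners with a summit in the body or within 2 kb became 6 with no margin, 13 to 22 otherwise and 13 to 16 when a replicate was left out. Against the pooled rank, the rank of the strongest peak moved most at Chro in replicate 1 (16), pzg in replicate 1 (2872), row in replicate 1 (898), Dref in replicate 2 (533), JIL-1 in replicate 2 (1122), Trf2 in replicate 2 (5091) and woc in replicate 3 (12298). Ranking by −log10 p was not run because that column is unfilled. Peak lists without read counts limit what can be said of weak or missing entries. Except for the replicate lists, no share of all genes is given beside these alternatives.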

Other observations

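The entries between the starts of M1BP and CG8202 were of a kind found elsewhere, which was looked for after their values were seen. Among the 1000 strongest entries, 2 in replicate 1, 22 in replicate 2 and 26 in replicate 3 had no entry of the pooled list within 500 bp. Of these, 20 of the 22 in replicate 2 and 23 of the 26 in replicate 3 lay within 250 bp of an annotated start, against 52.1% and 55.3% of all 1000 strongest entries of those replicates. Of the 22 in replicate 2, 19 had an entry within 200 bp in the list of replicate 3, and 18 of these 19 had none in the full list of replicate 1. The exception was at tsr, which ranked 537, 455 and 448 in replicates 1, 2 and 3. Examples are the entries at Cds, which ranked 319 in replicate 2 and 436 in replicate 3, at PIG-Q, which ranked 442 and 533, at the general transcription factor gene Taf4, which ranked 695 and 733, and at the ribosomal protein gene RpL9, which ranked 888 and 783. Among the 1000 strongest entries, M1BP was the only one of the 9 genes with such an entry. Among the 8131 strongest, 193, 467 and 559 entries of replicates 1, 2 and 3 were of this kind. At the 9 genes lay 1, 1 and 2 of them, upstream of M1BP in replicates 2 and 3 and at the first start of Trf2 in replicates 1 and 3. The cause was not tested, and lists that hold only pooled or optimal peaks do not show these sites.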
